A study of Mus musculus with 12 samples.

Results

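This account covers 10 genes of 54532 in the deposited table whose RNA was lower in Mettl14 conditional knockout (cKO) mouse limb buds than in heterozygous (cHet) limb buds, in cytoplasmic input RNA, in polysome RNA or in both. The 10 are Creb3l4, Spata18, Ch25h, Cthrc1, Rgcc, Cbln4, Efemp1, Thy1, Nqo1 and Stk32b. They were selected on the genotype values of these same 12 libraries, by name and with no numeric threshold, and collagens, histones and cartilage matrix genes were kept out of the selection. Their genotype differences are therefore described here and carry no test, and with no threshold there are no genes just inside or just outside one. The libraries form 4 groups of 3 biological replicates, all from E12.5 limb buds. The cKO limb buds were Mettl14 flox/flox and gave the cKO polysome and cKO input groups. The cHet limb buds were Mettl14 wt/flox, so these controls also carry a floxed allele, and gave the cHet polysome and cHet input groups. Input is RNA of the cytoplasmic fraction, and polysome is RNA of the sucrose gradient fractions that hold mRNAs with several ribosomes. The Cre driver, the cells it is active in, the number of limb buds or embryos behind a library and the strandedness of the libraries are not given in the sources used here. P-values therefore measure only the spread between these samples.

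METTL14 is the RNA-binding partner of the catalytic subunit METTL3 in the complex that writes N6-methyladenosine (m6A) on mRNA. m6A is read by proteins that change the decay, splicing and translation of the marked mRNA, and it is often found near stop codons and in long internal exons. Polysome RNA compared with input RNA shows which transcripts are loaded with ribosomes. The 10 genes have no common pathway. Creb3l4 encodes a transcription factor anchored in the endoplasmic reticulum, Spata18 a mitochondrial quality control protein and p53 target, and Rgcc a regulator of the cell cycle. Cthrc1, Efemp1 and Cbln4 encode secreted proteins, and Thy1 encodes a surface glycoprotein anchored by a lipid. Ch25h and Nqo1 encode enzymes, and Stk32b a serine/threonine kinase.

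Values are FPKM as the authors deposited them, that is fragments scaled by gene length and by a factor for each library. That factor was near the assigned reads but did not follow them exactly. A single read over 1 kb equalled 0.0387 FPKM in cKO input replicate 1 (26063921 reads). In cKO polysome replicate 2, with fewer reads (24783880), it equalled 0.0383 FPKM. Depth ran from 10349912 to 30068823 assigned reads, and a single read over 1 kb of gene equalled 0.0320 to 0.0930 FPKM. Mettl14 itself, the check of the labels, had 2.60, 3.32 and 1.26 FPKM in cKO input, against 4.09, 4.03 and 4.04 FPKM in cHet input. On polysomes it had 2.73, 2.81 and 3.29 FPKM in cKO, against 2.83, 3.07 and 3.02 FPKM in cHet. The groups did not overlap in input and overlapped on polysomes, and a count over the whole gene does not measure the floxed part alone. In a principal component analysis cKO input replicate 3 stood apart on the second component (-63.0, against 0.493 to 22.5 for the other input libraries). The library of cKO polysome replicate 1 stood apart on the first (3.97, against 35.5 and 45.0 for the other cKO polysome libraries). Values without each library that stood apart are given below. The cHet polysome libraries lay at 48.4 to 53.8 on the first component, and the input libraries at -41.5 to -36.2. Each cKO polysome library thus lay nearer to input than any cHet polysome library. The part of this difference in the polysome genotype values was not tested. The limb mesenchyme markers Prrx1, Prrx2, Twist1, Msx1, Msx2, Lhx2, Lhx9, Tbx5, Tbx4, Pitx1 and Hoxd13 were all detected in every group. They summed to 1105 to 1344 FPKM in cKO input and 789 to 963 FPKM in cHet input, higher in cKO without overlap. On polysomes they summed to 1392 to 2048 FPKM in cKO and 1456 to 1640 FPKM in cHet, where the groups overlapped, and their part in the results was not tested.

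All 10 genes passed the filter for low values, an FPKM of at least 1 in at least 3 of the fitted libraries. Spata18 in both fractions and Thy1 on polysomes passed it only through the cHet libraries, the group in which they are high, and gave no genotype value there once a cHet library of that fraction was left out. In input the 3 cKO libraries lay below the 3 cHet libraries without overlap for 9 of the 10 genes, all but Thy1. The background for that pattern was 12.4% of the 13610 genes tested over all 12 libraries. On polysomes 7 of the 10 did not overlap, against a background of 13.1% of the same genes, and Ch25h, Efemp1 and Nqo1 were the exceptions. For 6 genes (Creb3l4, Spata18, Cthrc1, Rgcc, Cbln4 and Stk32b) the genotypes were apart in both fractions. Since the genes were selected on these values, nothing is read from these counts. Across all genes, limma called 0 of 12977 genes (0%) for genotype in input and 0 of 12877 (0%) on polysomes at a Benjamini-Hochberg adjusted p under 0.05. Unadjusted p-values under 0.05 numbered 1943 in input and 2743 on polysomes. The voom alternative on the recovered reads also called 0 in each, with 2060 genes in input and 2840 on polysomes at an unadjusted p under 0.05.

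**Figure D1:**
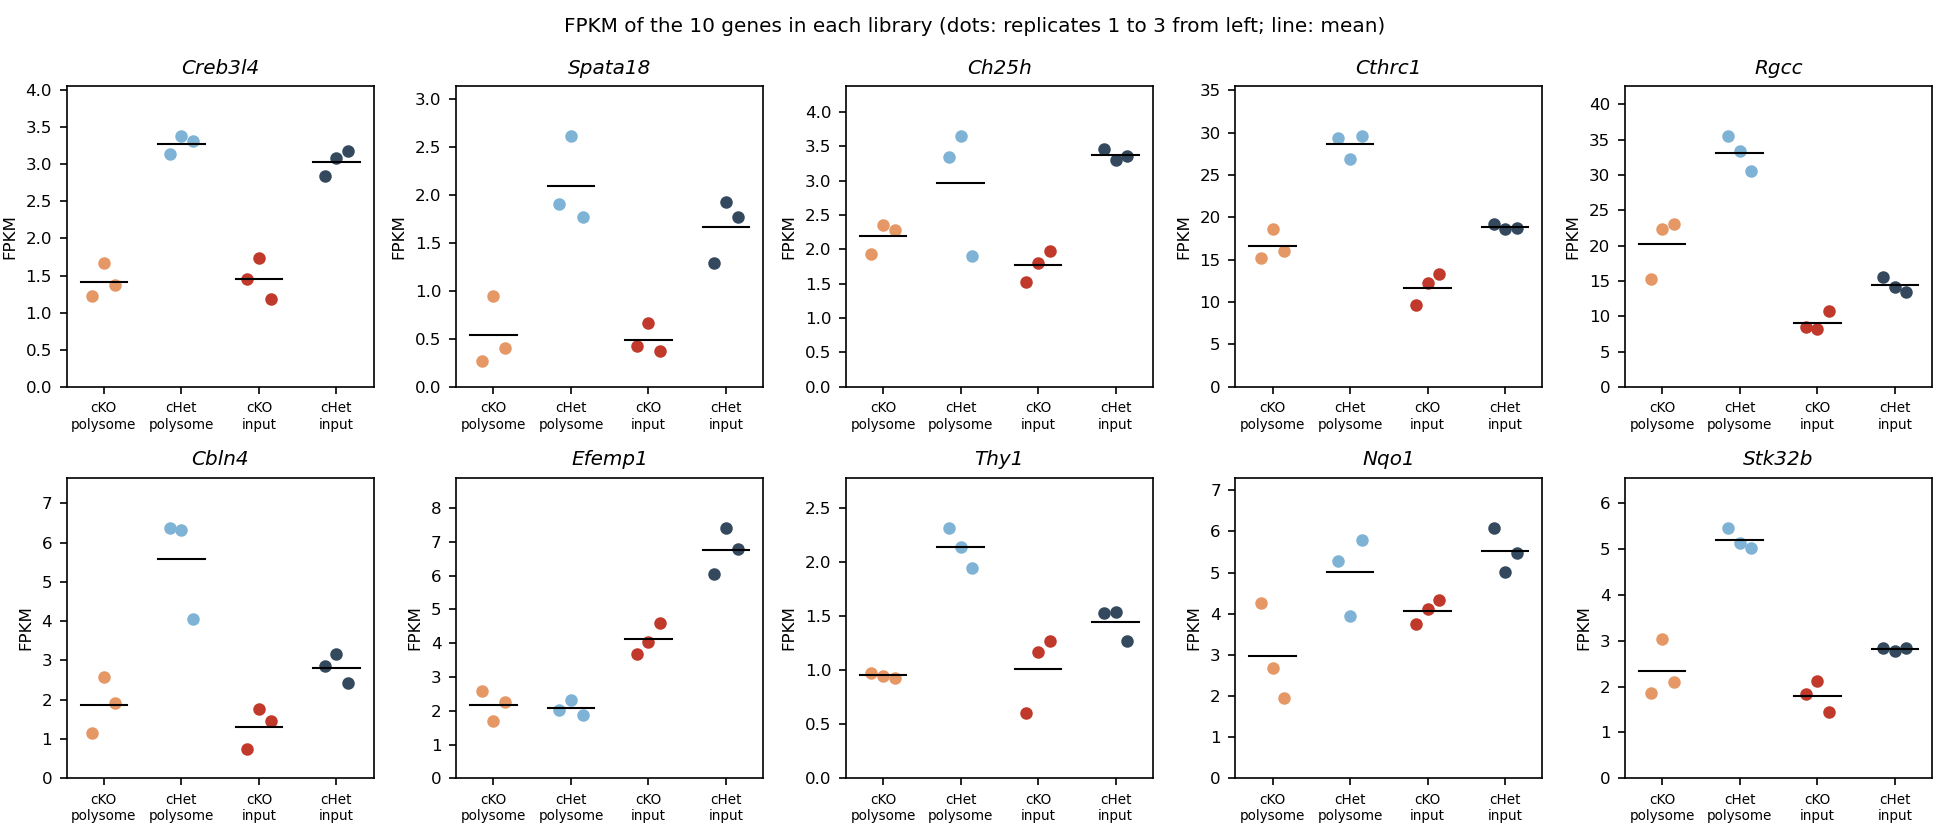
FPKM (linear axis from 0) of the 10 genes in each of the 12 libraries, 1 panel per gene, with cKO left of cHet within polysome RNA and within input; dots are libraries and lines are means of 3. The cKO dots lie below the cHet dots in both fractions for 6 genes, while Efemp1 overlaps on polysomes and Thy1 overlaps in input.

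Creb3l4 (ENSMUSG00000027938; mm10 chromosome 3, 90237500 to 90243512, minus strand) belongs to the CREB3 family of bZIP factors that are released from the membrane by cleavage. It had 1.45, 1.74 and 1.19 FPKM in cKO input, against 2.84, 3.08 and 3.18 FPKM in cHet input. In polysome RNA it had 1.22, 1.67 and 1.37 FPKM in cKO, against 3.14, 3.38 and 3.31 FPKM in cHet. Every cKO library was below every cHet library, and the cKO mean was 51.8% lower in input and 56.8% lower on polysomes. Its counts were small, 35 to 153 reads per library. The gene lies on the same chromosome as Mettl14, 33.1 Mb away.

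Spata18 (ENSMUSG00000029155; chromosome 5, 73651379 to 73679512, plus strand) encodes a protein that helps mitochondria degrade oxidised proteins. It had 0.423, 0.664 and 0.378 FPKM in cKO input, against 1.29, 1.92 and 1.77 FPKM in cHet input. On polysomes it had 0.274, 0.945 and 0.402 FPKM in cKO, against 1.90, 2.61 and 1.77 FPKM in cHet. The groups did not overlap in either fraction, and the means were 70.6% lower in cKO input and 74.2% lower on cKO polysomes. It also had the thinnest counts of the 10 genes, 13 to 107 reads per library, so that its single-library values carry the most counting error. In cKO polysome RNA the replicates spread by 0.76 on the log2 scale (SD, n = 3), with replicate 2 well above the others.

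The values of Creb3l4 and Spata18 followed each other more closely than those of any other pair among the 10 genes (described below), and both promoters are shown here for that reason. Each runs from 250 bases upstream of the RefSeq start to 10 bases downstream on GRCm38.p6, the same build as mm10, 5′ to 3′ on the gene's strand. In the promoters printed here, capitals mark the words TGACGTCA (the cAMP response element), TGTGGT or its complement ACCACA (a core RUNX word) and TATAAA. For Creb3l4 the most upstream of 3 annotated starts is shown.
Creb3l4, chr3:90243503-90243762, minus strand: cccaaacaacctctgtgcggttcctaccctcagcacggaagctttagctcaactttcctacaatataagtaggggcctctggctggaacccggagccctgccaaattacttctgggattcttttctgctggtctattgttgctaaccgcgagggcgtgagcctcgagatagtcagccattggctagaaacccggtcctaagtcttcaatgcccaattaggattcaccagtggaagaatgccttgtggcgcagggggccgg
Spata18, chr5:73651130-73651389, plus strand: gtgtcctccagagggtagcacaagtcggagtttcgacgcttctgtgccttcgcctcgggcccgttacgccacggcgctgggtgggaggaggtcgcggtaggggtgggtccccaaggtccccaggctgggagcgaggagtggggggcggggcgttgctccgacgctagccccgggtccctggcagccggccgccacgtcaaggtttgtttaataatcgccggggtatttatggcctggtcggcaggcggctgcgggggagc
Neither holds any of the 3 marked words. The Creb3l4 window holds CCAAT in 2 places, and the Spata18 window holds 1 antioxidant response word, TGACNNNGC, both counted on either strand over the whole 300 bases of the RefSeq entry.

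Rgcc (ENSMUSG00000022018; chromosome 14, 79288756 to 79301645, minus strand) encodes a small protein that modulates cyclin-dependent kinase activity. It had 8.44, 8.16 and 10.7 FPKM in cKO input, against 15.5, 14.2 and 13.4 FPKM in cHet input. Its polysome values were 15.3, 22.4 and 23.0 FPKM in cKO, against 35.5, 33.4 and 30.6 FPKM in cHet. The genotypes were apart in both fractions, by a similar proportion of 36.7% in input and 39.1% on polysomes. It was the gene of the 10 with the highest level on cHet polysomes, 33.2 ± 2.48 FPKM (SD, n = 3).

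Among the secreted products, Cthrc1 (ENSMUSG00000054196; chromosome 15, 39076932 to 39087121, plus strand) encodes a glycoprotein with a short collagen repeat that binds WNT ligands and their receptors. It had 9.61, 12.2 and 13.3 FPKM in cKO input, against 19.2, 18.6 and 18.8 FPKM in cHet input. In polysome RNA it had 15.2, 18.6 and 16.0 FPKM in cKO, against 29.4, 26.9 and 29.6 FPKM in cHet. The groups were apart in both fractions, with cKO means 37.9% lower in input and 42.1% lower on polysomes. With 373 to 1135 reads per library it was the most deeply counted of the 10 genes.

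Cbln4 (ENSMUSG00000067578; chromosome 2, 172036233 to 172043466, minus strand) encodes a cerebellin, a secreted C1q-type protein known as a synapse organiser in the brain. It had 0.734, 1.76 and 1.45 FPKM in cKO input, against 2.86, 3.16 and 2.43 FPKM in cHet input. On polysomes it had 1.15, 2.57 and 1.91 FPKM in cKO, against 6.38, 6.32 and 4.06 FPKM in cHet. The groups did not overlap in either fraction, although replicate 1 of cKO was much the lowest in both. The cKO mean was 53.3% lower in input and 66.4% lower on polysomes.

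Efemp1 (ENSMUSG00000020467; chromosome 11, 28853204 to 28926743, plus strand) encodes fibulin-3, an extracellular matrix glycoprotein of connective tissue. It had 3.69, 4.04 and 4.61 FPKM in cKO input, against 6.04, 7.42 and 6.78 FPKM in cHet input, and these groups were apart. Its polysome values were 2.57, 1.71 and 2.25 FPKM in cKO, against 2.01, 2.33 and 1.88 FPKM in cHet, and there the groups were mixed. The cKO mean was 39.1% lower in input, while on polysomes it was 1.05 times the cHet mean.

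Thy1 (ENSMUSG00000032011; chromosome 9, 44043384 to 44048579, plus strand) encodes the surface glycoprotein CD90, found on thymocytes, neurons and mesenchymal cells. It had 0.608, 1.17 and 1.27 FPKM in cKO input, against 1.53, 1.54 and 1.27 FPKM in cHet input. The highest cKO and the lowest cHet library were nearly equal there. In polysome RNA it had 0.977, 0.946 and 0.933 FPKM in cKO, against 2.32, 2.14 and 1.95 FPKM in cHet, with a wide gap between groups. The cKO mean was 29.6% lower in input and 55.5% lower on polysomes.

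Ch25h (ENSMUSG00000050370; chromosome 19, 34473786 to 34475135, minus strand) encodes cholesterol 25-hydroxylase, which makes an oxysterol that dampens sterol synthesis. It had 1.52, 1.80 and 1.98 FPKM in cKO input, against 3.46, 3.30 and 3.36 FPKM in cHet input, with no overlap. On polysomes it had 1.94, 2.35 and 2.29 FPKM in cKO, against 3.35, 3.65 and 1.91 FPKM in cHet, where replicate 3 of cHet was the lowest library of all 6. The cKO mean was 47.6% lower in input and 26.1% lower on polysomes. The long noncoding gene Gm26902 overlaps Ch25h on the plus strand, and reads of the overlap cannot be told apart where strand was not used in counting. That gene averaged 0.279 FPKM in cKO input and 0.504 FPKM in cHet input, and 0.389 FPKM on cKO polysomes and 0.655 FPKM on cHet polysomes.

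Nqo1 (ENSMUSG00000003849; chromosome 8, 107388225 to 107403206, minus strand) encodes a quinone reductase that is a standard target of the oxidative stress factor NRF2. It had 3.74, 4.11 and 4.32 FPKM in cKO input, against 6.09, 5.02 and 5.48 FPKM in cHet input, with a narrow gap between groups. Its polysome values were 4.26, 2.69 and 1.96 FPKM in cKO, against 5.29, 3.95 and 5.78 FPKM in cHet. Those groups overlapped, because cKO replicate 1 was above cHet replicate 2. The cKO mean was 26.6% lower in input and 40.7% lower on polysomes.

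Ch25h and Nqo1 were the members whose promoters held marked words, and their sequences are shown for that reason, over the same window as above.
Ch25h, chr19:34475139-34475398, minus strand: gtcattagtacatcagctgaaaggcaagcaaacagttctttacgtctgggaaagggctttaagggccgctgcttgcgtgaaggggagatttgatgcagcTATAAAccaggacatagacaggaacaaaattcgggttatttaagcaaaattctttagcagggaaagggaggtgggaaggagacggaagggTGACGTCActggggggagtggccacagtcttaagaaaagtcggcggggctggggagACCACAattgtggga
Nqo1, chr8:107403196-107403455, minus strand: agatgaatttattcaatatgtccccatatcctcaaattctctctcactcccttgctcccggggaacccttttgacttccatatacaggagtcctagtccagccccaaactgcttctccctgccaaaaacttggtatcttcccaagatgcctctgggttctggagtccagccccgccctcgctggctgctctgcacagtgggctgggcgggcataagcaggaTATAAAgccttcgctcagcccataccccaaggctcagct
In Ch25h the TATAAA word begins at position -151, the cAMP response element at -61 and the RUNX word, as ACCACA, at -5 relative to the start. In Nqo1 the TATAAA word begins at -29. Of 32851 RefSeq promoters of 300 bases searched on both strands, 1.79% hold TGACGTCA, 16.8% TGTGGT, 13.6% TATAAA, 37.4% CCAAT and 12.4% TGACNNNGC. RefSeq promoters were matched for 8 of the 10 genes, 10 promoters in all; those of Cthrc1 and Thy1 are named only. Among the 8 genes, 1 held the cAMP response element, 1 the RUNX word, 2 TATAAA, 2 CCAAT and 2 TGACNNNGC (Cbln4 and Spata18). A match describes letters only, and no match says only that these letters are not in the window.

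Stk32b (ENSMUSG00000029123; chromosome 5, 37446825 to 37717171, minus strand) encodes a kinase of the AGC group with few known substrates. It had 1.83, 2.13 and 1.45 FPKM in cKO input, against 2.84, 2.78 and 2.85 FPKM in cHet input. In polysome RNA it had 1.87, 3.05 and 2.11 FPKM in cKO, against 5.47, 5.14 and 5.02 FPKM in cHet. The genotypes were apart in both fractions and the cHet libraries lay close together in each. The cKO mean was 36.2% lower in input and 55.0% lower on polysomes. Its neighbour Cytl1, a gene for a secreted cytokine-like protein of cartilage that lies within 20000 bases and does not overlap it, averaged 1.22 FPKM in cKO input and 2.20 FPKM in cHet input. On polysomes Cytl1 averaged 2.16 FPKM in cKO and 4.11 FPKM in cHet.

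On the log2(FPKM + 0.1) scale the members differed in where they were lowest. In input the difference of cKO minus cHet was largest for Spata18, -1.59 (SE 0.28), followed by Cbln4, -1.11 (SE 0.31), and Creb3l4, -1.02 (SE 0.18). It was smallest for Nqo1, -0.44 (SE 0.13). On polysomes the order began with Spata18, -1.90 (SE 0.37), and Cbln4, -1.56 (SE 0.29), and next came Creb3l4 at -1.17 (SE 0.16), Stk32b at -1.15 (SE 0.19) and Thy1 at -1.09 (SE 0.17). At the other end stood Ch25h at -0.37 (SE 0.24) and Efemp1 at 0.06 (SE 0.19). The ranges of 1 standard error around neighbours in both orders overlap or touch.

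**Figure D2:**
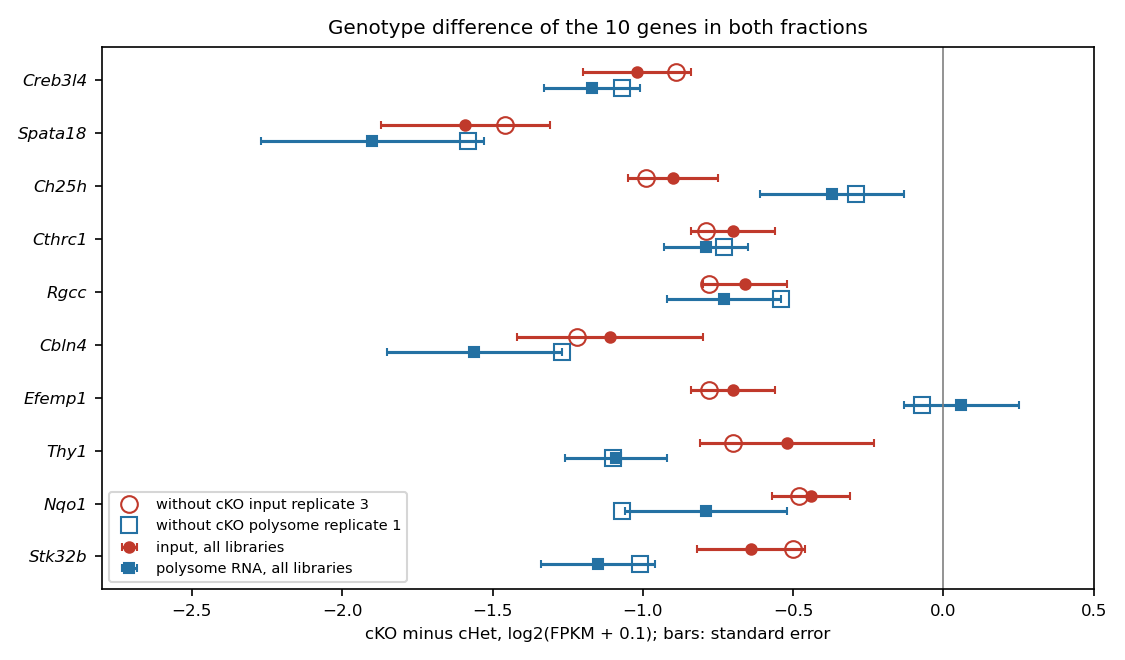
Difference of cKO minus cHet in log2(FPKM + 0.1) for the 10 genes in input (red circles) and polysome RNA (blue squares), filled with standard errors for all libraries (n = 3 per group) and open without the library that stood apart. With all libraries Efemp1 sits at 0.06 on polysomes and the other points lie below 0; there is no test, because the genes were selected on these values.

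The libraries that stood apart shaped some of these values. Replicate 1 of cKO polysome, which stood apart, was the lowest of its group for 7 of the 10 genes. In cKO input replicate 3, which stood apart, was the lowest for 3 genes, and replicate 1, which did not, for 6. Without cKO polysome replicate 1 the polysome difference of Spata18 was -1.58, that of Cbln4 -1.27 and that of Rgcc -0.54, each nearer to 0 than with it. Nqo1 moved the other way, to -1.07, and Efemp1 became -0.07. Without cKO input replicate 3 the input difference was -0.70 for Thy1 and -0.99 for Ch25h, both farther from 0, and -0.50 for Stk32b, nearer to 0. The 10 genes stayed lower in cKO input in this setting. Other single libraries also moved values. Without cKO input replicate 1 the input difference was -0.22 for Thy1 and -0.77 for Cbln4, both nearer to 0. The polysome difference of Ch25h was -0.65 without cHet polysome replicate 3 and -0.20 without cHet polysome replicate 2, and that of Efemp1 ran from -0.07 to 0.21 over the libraries left out.

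The comparison of polysome with input RNA, averaged over both genotypes, was not used in the selection and was tested. It rests on the same libraries and is fully independent of the selection only where replicates spread equally in both genotypes. For most of the 10 genes they spread more in cKO input (for Cbln4 a log2 SD of 0.61, against 0.18 in cHet input). Nqo1 was the reverse (0.10 and 0.14). Among all 13610 genes tested over the 12 libraries, limma called 31.6% higher and 28.9% lower on polysomes than in input at a Benjamini-Hochberg adjusted p under 0.05. Of the 10 genes, 4 were higher, 1 was lower and 5 did not pass, and the median of the 10 differences was 0.21 log2 against 0.04 for all genes tested. Rgcc was higher on polysomes by 1.17 log2 (SE 0.12, limma adjusted p = 1.57e-05), with the polysome library above the input library of its lysate in all 6 lysates. Cbln4 was higher by 0.72 (SE 0.23, limma adjusted p = 0.0172), Stk32b by 0.60 (SE 0.13, limma adjusted p = 0.00184) and Cthrc1 by 0.55 (SE 0.10, limma adjusted p = 5.33e-04). Efemp1 was lower by -1.28 log2 (SE 0.12, limma adjusted p = 8.64e-06), in all 6 lysates. Creb3l4 (0.04, limma adjusted p = 0.805), Ch25h (0.04, 0.851), Spata18 (0.16, 0.587), Thy1 (0.26, 0.205) and Nqo1 (-0.33, 0.103) did not pass. The 5 calls held in each of 12 fits that left out 1 library. Nqo1 passed as lower on polysomes when cKO polysome replicate 1 was left out (-0.47, limma adjusted p = 0.00660), within an adjusted p range of 0.00660 to 0.252 over the 12 fits.

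The polysome to input ratio of FPKM in each lysate shows how the input and polysome values fit together within a genotype. This comparison follows from the 2 genotype contrasts the genes were selected on and is given without a test. For Efemp1 the ratio was 0.696, 0.423 and 0.489 in the 3 cKO lysates and 0.332, 0.314 and 0.277 in the 3 cHet lysates, so the cKO lysates had the smaller deficit on polysomes. For Cbln4 it was 1.56, 1.46 and 1.32 in cKO and 2.23, 2.00 and 1.67 in cHet, higher in every cHet lysate. For Stk32b it was 1.03, 1.43 and 1.46 in cKO and 1.93, 1.85 and 1.76 in cHet, again higher in every cHet lysate. For Ch25h it was 1.27, 1.31 and 1.16 in cKO and 0.970, 1.11 and 0.568 in cHet, with the lowest value from cHet replicate 3. These 4 genes had no overlap between the genotypes' lysates, against a background of 18.4% of 13610 genes in either direction.

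The difference of cKO minus cHet in the log2 ratio of FPKM + 0.1 was 0.76 for Efemp1, 0.53 for Ch25h, -0.57 for Thy1, -0.51 for Stk32b and -0.45 for Cbln4. For Rgcc it was -0.07, for Cthrc1 -0.09 and for Creb3l4 -0.15, all small beside their differences within each fraction. Several of these values rest on single libraries. Thy1 was -0.86 without cKO input replicate 1, and Ch25h 0.25 without cHet polysome replicate 3. Cbln4 was -0.15 without cKO polysome replicate 1, the library that stood apart, -0.21 without cKO input replicate 2, -0.79 without cKO input replicate 1 and -0.70 without cKO polysome replicate 2. Over the libraries left out Creb3l4 ran from -0.28 (without cKO input replicate 3) to -0.02 (without cKO input replicate 2), Cthrc1 from -0.23 (without cKO input replicate 1) to 0.00 (without cKO input replicate 3) and Rgcc from -0.18 (without cKO polysome replicate 3) to 0.12 (without cKO polysome replicate 1). The Efemp1 and Stk32b values moved by less than 1.5 times.

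**Figure D3:**
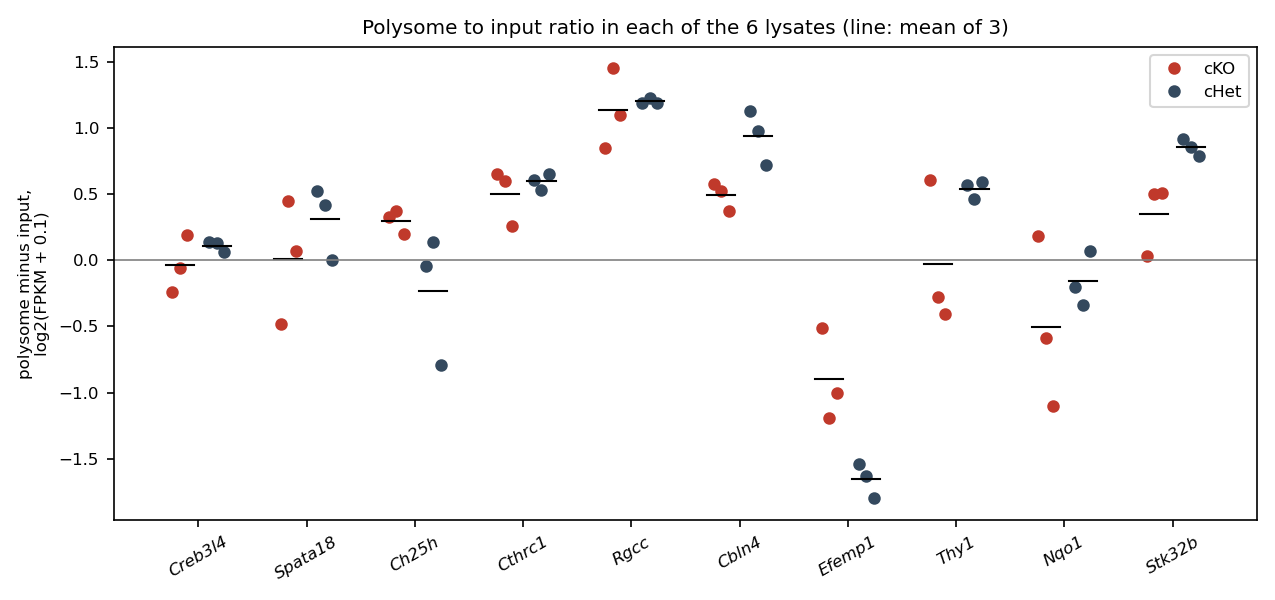
Polysome minus input in log2(FPKM + 0.1) for the 10 genes, with 1 dot for each of the 3 cKO (red) and 3 cHet (dark) lysates and a line for each mean. Rgcc lies above 0 and Efemp1 below 0 in all 6 lysates, and the cKO lysates of Efemp1 lie above its cHet lysates.

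Across the 12 libraries the members varied in more than 1 way. Pearson correlations of log2(FPKM + 0.1) between members ran from -0.66 for Rgcc and Efemp1 to 0.97 for Creb3l4 and Spata18. These values share the libraries, their depth and the group structure, including the genotype difference the genes were selected on, and are descriptions. Among 11896 protein-coding genes, Spata18 was the gene most like Creb3l4 (0.972) and Creb3l4 the gene most like Spata18, and Sstr1, a somatostatin receptor gene, came next for Spata18 (0.957). Rgcc was most like Wnt9a, a WNT ligand gene (0.987), and H2afx, a histone variant gene (0.983). Cthrc1 was most like Rap1gap2 (0.978), and Cbln4 most like the splicing factor gene Sfswap (0.984), and Mmab, an enzyme gene of cobalamin metabolism, was next for both (0.975 for Cthrc1 and 0.976 for Cbln4). Efemp1 was most like Dna2 (0.973) and Prpf6 (0.970), and Stk32b most like Ldlrad4 and Hist2h2be (both 0.974). Thy1 was most like Tmem186 (0.956) and Tmem177 (0.945). The weakest likeness was that of Ch25h, to Inpp5b (0.863) and Kcne4 (0.858), and of Nqo1, to Fblim1 (0.900) and Pdxdc1 (0.897).

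The transcripts of the 10 genes were short. By GENCODE M21, annotated on this build, their median transcript was 1644 bases, against 3138 bases over 11872 genes, and 9 of the 10 lay below that median of all genes. Stk32b, at 3458 bases, was the exception, and Rgcc, at 918 bases, was the shortest. The last exon had a median of 743.5 bases for the 10 genes and 1480 over all genes, and the 3′ untranslated region a median of 438.5 bases for the 10 genes and 1160 over all genes. The longest internal exon had a median of 204.0 bases for the 10 genes and 205.0 over all genes, and the GC content 50.1% for the 10 genes and 50.5% over all genes. Ch25h has a single exon and Spata18 has 13. GGAC followed by A, C or T, a form of the sequence the m6A writer prefers, occurred at a median of 4.15 per kb in the 10 genes and 3.61 per kb in all genes, on the transcript strand. For these words 6 of the 10 lay above the median, with Rgcc highest at 5.45 per kb and Nqo1 lowest at 1.93 per kb; their presence does not show methylation, which these libraries did not measure. Over all genes the shortest of 4 equal classes by transcript length had a median cKO minus cHet difference of 0.04 in input and -0.05 on polysomes. The longest class had -0.09 in input and 0.07 on polysomes, so both signs turned between the fractions.

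**Figure D4:**
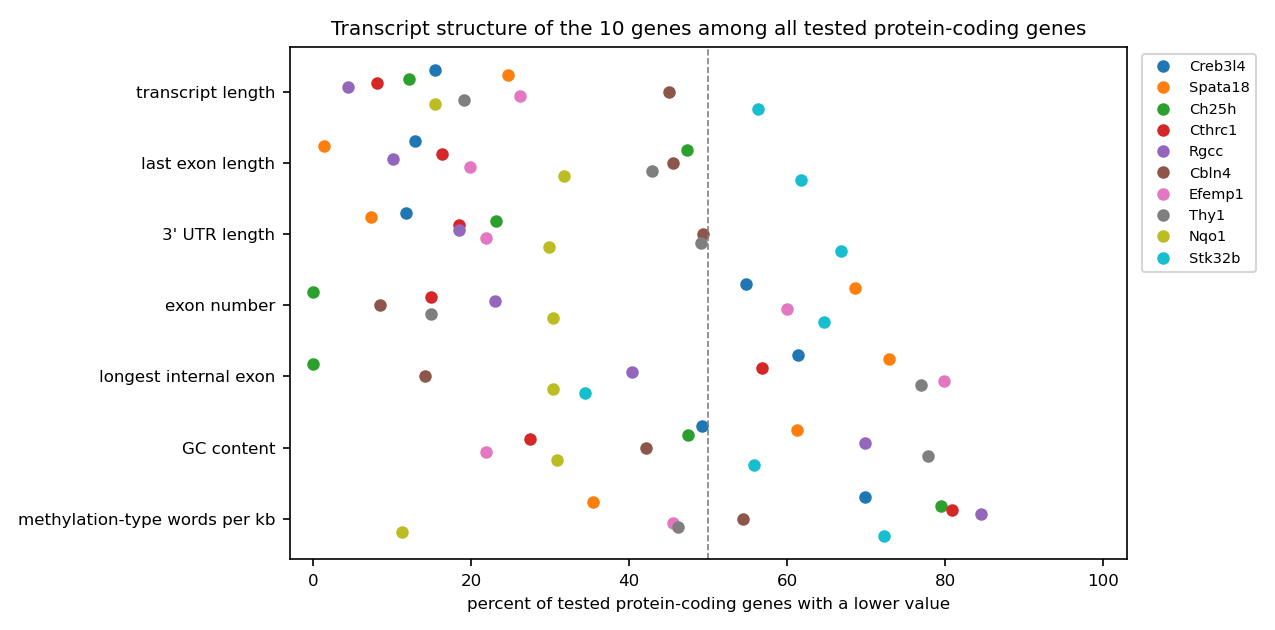
Rank of each of the 10 genes among 11872 tested protein-coding genes for 7 transcript features, as the percent of genes with a lower value, with a dashed line at 50%. For transcript length, last exon and 3′ untranslated region 9 of the 10 dots lie left of the line, and Stk32b lies right of it.

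The closest paralogs were read from the same fits. Of 15 listed, 11 were tested for genotype and 0 passed in either fraction with all libraries, as over all genes. Creb3l1, the CREB3 family factor that drives collagen secretion in bone, averaged 9.35 ± 1.94 FPKM on cKO polysomes and 17.6 ± 0.661 FPKM on cHet polysomes (SD, n = 3 each). Its difference was -0.93 log2 (SE 0.17, limma adjusted p = 0.0848), and the adjusted p ran from 0.0412 to 0.334 over the alternatives. In input Creb3l1 averaged 7.34 ± 0.885 FPKM in cKO and 10.5 ± 0.731 FPKM in cHet (-0.52 log2, limma adjusted p = 0.183). Cbln1, the cerebellin that organises cerebellar synapses, averaged 4.71 ± 1.29 FPKM in cKO input and 5.96 ± 0.295 FPKM in cHet input (limma adjusted p = 0.429). Without the library that stood apart, 2.54% of 12827 genes passed in input and 1.26% of 12738 on polysomes. In these fits 1 of the 11 paralogs passed in each, Cbln1 in input and Creb3l1 on polysomes, both lower in cKO.
Fbln1, a fibulin like Efemp1, averaged 41.8 ± 23.4 FPKM on cKO polysomes and 19.2 ± 4.07 FPKM on cHet polysomes (1.00 log2, limma adjusted p = 0.166). Fbln2 differed the same way there, by 0.75 log2 (limma adjusted p = 0.207). Cbln2, a cerebellin like Cbln4, averaged 4.41 ± 0.402 FPKM on cKO polysomes and 6.42 ± 0.453 FPKM on cHet polysomes (-0.53 log2, limma adjusted p = 0.110). Stk32c, a paralog of Stk32b, differed by -0.53 log2 on polysomes (limma adjusted p = 0.265). Of the 11 paralogs tested on polysomes, 5 were above 0 and 6 below.

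With all libraries the pathways around the members had 0 genes past the threshold for genotype in either fraction. The same held over all genes, 0 of 12977 in input and 0 of 12877 on polysomes, so these counts do not set the pathways apart. For the CREB3 processing and unfolded protein response list, 20 of 20 were tested, and the median difference was -0.14 in input and 0.19 on polysomes, against -0.01 and 0.02 for all genes. Without cKO input replicate 3, 77 of 12827 genes over all passed as lower in cKO input, among them 2 of these 20. They were Sec24d, a coat protein gene of vesicles leaving the endoplasmic reticulum (-0.55), and Xbp1, a factor of the unfolded protein response (-0.43). With all libraries Sec24d averaged 6.09 ± 0.720 FPKM in cKO input and 8.59 ± 0.241 FPKM in cHet input (limma adjusted p = 0.183). The p53 targets, tested because Spata18 is one, had a median of 0.10 in input and 0.11 on polysomes over 22 genes. Ddit4l of that list averaged 7.51 ± 1.62 FPKM in cKO input and 3.98 ± 0.343 FPKM in cHet input (limma adjusted p = 0.150), opposite in sign to Spata18.

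The NRF2 list, which holds the partners of Nqo1, had medians of -0.08 over 25 genes in input and 0.01 over 24 on polysomes. Its gene Cbr3, a carbonyl reductase, averaged 2.73 ± 0.606 FPKM in cKO input and 1.44 ± 0.0911 FPKM in cHet input (limma adjusted p = 0.165), and Nqo1 differed in the opposite direction. For cholesterol synthesis and the oxysterol response, around Ch25h, medians were -0.00 over 31 genes in input and 0.18 over 32 on polysomes. Dhcr7, which catalyses a late step of cholesterol synthesis, averaged 12.1 ± 1.85 FPKM on cKO polysomes and 7.04 ± 0.491 FPKM on cHet polysomes (0.76 log2, limma adjusted p = 0.0866). Its adjusted p ran from 0.0450 to 0.334 over the alternatives.

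For elastic fibre and microfibril genes, around Efemp1, medians were 0.05 over 15 genes in input and 0.40 over 14 on polysomes. Emilin2, an elastic fibre glycoprotein gene, averaged 13.9 ± 4.41 FPKM in cKO input and 6.98 ± 0.760 FPKM in cHet input (limma adjusted p = 0.165). Emilin2 passed as higher in both fits without the libraries that stood apart, the only gene of its list to do so. Over all genes 249 of 12827 passed as higher in input and 100 of 12738 on polysomes in these fits. In the test of polysome against input, 11 of 15 genes of this list were lower on polysomes and 1 was higher. Over all genes 28.9% were lower and 31.6% higher. The median was -1.01 against 0.04 for all genes, and Efemp1 was lower by -1.28 in the same fit. This lean was not particular to the list. Of 15 mesenchymal surface glycoproteins 10 were lower and 3 higher (median -0.66). Of the 20 unfolded protein response genes 12 were lower and 4 higher (median -0.51). Of 22 p53 targets 5 were lower and 10 higher. Planar polarity WNT genes, the pathway in which Cthrc1 acts, had medians of 0.18 over 22 genes in input and 0.34 over 21 on polysomes. Fzd2, a WNT receptor gene, averaged 126 ± 39.2 FPKM on cKO polysomes and 61.6 ± 18.3 FPKM on cHet polysomes (limma adjusted p = 0.118).

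Mitotic kinases and cyclins, around Rgcc, had medians of -0.13 in input and 0.22 on polysomes over 14 genes, with Plk1, a mitotic kinase gene, at 24.9 ± 4.28 FPKM on cKO polysomes and 17.8 ± 0.309 FPKM on cHet polysomes (limma adjusted p = 0.159). Of 11 cerebellin partners 3 were tested for genotype, with medians of 0.27 in input and 0.31 on polysomes, and Neo1, a netrin receptor gene, averaged 17.1 ± 6.89 FPKM on cKO polysomes and 9.65 ± 0.998 FPKM on cHet polysomes (limma adjusted p = 0.161). The mesenchymal surface glycoproteins, listed beside Thy1, had medians of -0.03 over 15 genes in input and 0.28 over 12 on polysomes. Sdc4, a syndecan gene, averaged 24.1 ± 3.94 FPKM in cKO input and 16.7 ± 0.507 FPKM in cHet input (limma adjusted p = 0.204). None of these medians has a test.

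Markers of other cell types were set beside the members, since fewer cells of a type and less RNA per cell cannot be told apart in bulk RNA. Connective tissue and tendon markers, 9 genes, summed to 229 to 251 FPKM in cKO input and 252 to 266 FPKM in cHet input. On polysomes they summed to 220 to 257 FPKM in cKO and 228 to 259 FPKM in cHet, where the groups overlapped. The direction of the input sum was that of Cthrc1, Efemp1 and Thy1, which fibroblasts also express, but the list was split. In input 6 of the 9 were lower in cKO, namely Kera, Tnmd, Dcn, Lum, Tcf7l2 and Osr1. The other 3, Scx, Fmod and Osr2, were higher, and 0 of the 9 passed, as over all genes. Kera averaged 9.82 ± 6.80 FPKM in cKO input and 21.9 ± 1.96 FPKM in cHet input. Dcn averaged 6.34 ± 2.78 FPKM in cKO input and 11.7 ± 1.19 FPKM in cHet input. Lum averaged 32.2 ± 13.6 FPKM in cKO input and 52.8 ± 1.99 FPKM in cHet input. Scx averaged 88.5 ± 29.3 FPKM in cKO input and 66.5 ± 3.19 FPKM in cHet input. Perichondrium and osteoblast markers, 8 genes, summed to 91.2 to 117 FPKM in cKO input and 101 to 102 FPKM in cHet input. Ibsp was near 0 in both, at 0 in all 3 cKO input libraries and 0.0897 ± 0.102 FPKM in cHet input. Of 5 tested in input, 3 were higher in cKO (Col1a1, Alpl and Sp7) and 2 lower (Runx2 and Postn). Runx2 averaged 1.49 ± 0.122 FPKM in cKO input and 2.32 ± 0.431 FPKM in cHet input. On polysomes the markers summed to 26.8 to 46.7 FPKM in cKO and 21.9 to 27.1 FPKM in cHet, with overlap. Their part in the result was not tested.

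Epidermis markers, 7 genes, summed to 318 to 354 FPKM in cKO input and 267 to 270 FPKM in cHet input, and to 162 to 334 FPKM on cKO polysomes and 118 to 132 FPKM on cHet polysomes. Macrophage markers, 9 genes, summed to 42.9 to 58.6 FPKM in cKO input and 34.4 to 39.4 FPKM in cHet input, and to 43.7 to 74.7 FPKM on cKO polysomes and 30.1 to 40.6 FPKM on cHet polysomes. Both sums were higher in cKO without overlap in both fractions, opposite to the members, and their part in the result was not tested. Erythroid markers, 8 genes, summed to 5684 to 14049 FPKM in cKO input and 9076 to 23498 FPKM in cHet input, and to 10578 to 25507 FPKM on cKO polysomes and 15866 to 30852 FPKM on cHet polysomes, with overlap in both.

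T cells and neurons are the other cells known for Thy1. Of 7 T cell markers 4 or 5 were under 0.1 FPKM in every group, with Cd3e at 0.0293 FPKM in cKO input and 0.00930 FPKM in cHet input. Lck was the exception, at 3.93 ± 1.10 FPKM in cKO input and 4.50 ± 0.520 FPKM in cHet input. Neuron markers, 9 genes, summed to 11.4 to 15.1 FPKM in cKO input and 9.79 to 10.9 FPKM in cHet input, and to 7.34 to 13.2 FPKM on cKO polysomes and 5.46 to 6.14 FPKM on cHet polysomes. The input sums rest on Tubb3, a neuronal tubulin gene, at 9.46 ± 2.21 FPKM in cKO and 5.90 ± 0.424 FPKM in cHet. Stmn2 (0.902 FPKM in cKO input and 1.23 FPKM in cHet input), Nefm (0.882 FPKM in cKO and 1.28 FPKM in cHet), Nefl (0.643 FPKM in cKO and 0.989 FPKM in cHet) and Elavl4 (0.331 FPKM in cKO and 0.475 FPKM in cHet) were lower in cKO input, as Thy1 and Cbln4 were. Prph (0.145 FPKM in cKO and 0.0858 FPKM in cHet), Elavl3 and Snap25 were higher in cKO input, all at low values. Isl1 was nearly equal there (0.270 and 0.272 FPKM). On polysomes Tubb3 was higher in cKO, at 6.84 ± 3.12 FPKM against 2.37 ± 0.124 FPKM in cHet (1.40 log2, limma adjusted p = 0.0848). Without cKO polysome replicate 1 Tubb3 passed as higher, as did 100 of 12738 genes over all. Stmn2 (0.997 FPKM on cKO polysomes and 1.51 FPKM on cHet polysomes) and Nefl were lower in cKO there. Nefm was higher there (0.615 and 0.515 FPKM) and Elavl4 nearly equal (0.432 and 0.433 FPKM). The median over the 3 neuron markers tested in input was -0.42, and 0 of 3 passed the threshold, as over all genes. Their part in the result was not tested. Chondrocyte, myoblast, endothelium and Schwann cell sums overlapped between the genotypes in input.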

How the data were processed

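RNA-seq libraries were made from cytoplasmic input and polysome RNA of cKO and cHet limb buds, 12 in all, grouped by the labels. Reads were aligned with HISAT2 2.0.5 and counted with featureCounts 1.5.0-p3 on mm10, per the submitters' processing notes. The table the authors deposited holds FPKM values for 54532 genes, of which 22046 were protein-coding. Because FPKM is scaled within each library, a value also depends on the other RNAs in it. FPKM times gene length was divided by its smallest positive value in each library, which was taken as 1 read. The results were integers (tolerance 0.01) for 100.0% of values above 0, and their sums gave depths of 10349912 to 30068823 reads. Intervals for counting error were not computed, and reads without molecular identifiers are not independent molecules.

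The models were fitted by limma 3.58.1 (R 4.3.3, trend in the empirical Bayes step) to log2(FPKM + 0.1), a scale that understates the change of low genes. Genes with an FPKM of at least 1 in at least 3 fitted libraries were tested. Tests were two-sided, adjusted over all genes tested by Benjamini-Hochberg and called under 0.05. The genotype fits used the 6 input or the 6 polysome libraries, and the polysome to input fit all 12 with 4 group means. With 3 libraries against 3 an exact permutation test cannot go below p = 0.1. The fits were run on simulated data with large changes in genes with many reads only. That check does not bear on genes with few reads or smaller changes.

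The 10 members and the lists of paralogs, pathways and markers were chosen with earlier results of these data known. Named besides the members were up to 2 genes most like each by Pearson correlation over the 12 libraries, and some of the detected paralogs. Up to 3 genes per pathway list with the smallest p were also chosen, of which 1 or 2 are described. Cytl1 and Lck were named after their values were seen. Input and polysome libraries of 1 genotype and number share a lysate, per the design text. Their deviations from group means correlated at 0.05 to 0.25, and the fit with the lysate as a block changed no member's call. Of the identifiers, 54409 were in GENCODE M21, where 98.3% of them, and 9 of the 10 members, had equal coordinates. Promoters came from RefSeq (GRCm38.p6). Alternatives were other pseudocounts and filters, median-ratio scaling, voom on recovered reads, replicate blocks, leaving out each library, and leaving out those that stood apart. Recomputing the named paralogs and pathway genes under these alternatives was chosen after seeing the data.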

Additional observations from a re-analysis of the deposited data

How the results depend on the processing

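Of the 10 genes' differences, 118 of the alternative values in input and 114 on polysomes moved by less than the spread between replicates, and 3 in each moved by more. All 6 came with a pseudocount of 1, which shrinks low genes: Creb3l4 (-0.72), Spata18 (-0.83) and Ch25h (-0.66) in input, and Creb3l4 (-0.83), Spata18 (-1.02) and Thy1 (-0.68) on polysomes. No alternative changed the sign of these in input. For the tested comparison of polysome with input, 193 alternative values kept their side of the threshold and 2, both of Nqo1, crossed it. Differences near 0 changed sign without passing. Creb3l4 was -0.03 without cKO input replicate 3 and -0.02 without cKO polysome replicate 2, within a range of -0.03 to 0.10 over all libraries left out. Spata18 was -0.05 without cKO polysome replicate 2, within -0.05 to 0.32. Ch25h was -0.01 without cKO input replicate 1, -0.02 without cHet polysome replicate 1 and -0.05 without cHet polysome replicate 2, within -0.05 to 0.18. Nqo1 passed without cKO polysome replicate 1 (-0.47) and without both libraries that stood apart (-0.45, limma adjusted p = 0.00666). The cause was not tested.

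The number of genes called for genotype in input was 0 to 326 when a library was left out, 326 without cKO input replicate 3 and 47 without cKO input replicate 2. On polysomes it was 0 to 231, with 160 without cKO polysome replicate 1, 231 without cKO polysome replicate 2 and 1 without cHet polysome replicate 1. With the replicate number as a block the polysome count was 42, 31 higher and 11 lower. The cKO and cHet libraries of 1 number correlated at -0.09 to -0.04 in input and -0.28 to 0.17 on polysomes. Whether they share more than a number was not tested. For polysome against input, 8227 genes passed, 7399 to 9431 with a library left out, 8415 with the lysate as replicate block and 10317 without both libraries that stood apart. At a filter of FPKM 5 a value remained for 4 of the 10 genes in input, 3 on polysomes and 5 in the comparison of polysome with input. Depth limits Spata18 most, with 13 reads in its lowest library.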
